A study of Mus musculus with 6 samples.

Results

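Cytochrome P450 genes of families 1 to 4 were described across livers of mouse pups from mothers on 3 diets. The members were all genes whose symbol begins with Cyp, a family number from 1 to 4, a subfamily letter and a gene number, and which had a probe annotated to that gene alone. They numbered 69 of the 19938 genes with such a probe, each represented by its brightest probe, and each had a single probe. Family 2 held 44 of them, family 4 held 16, family 3 held 6 and family 1 held 3. Testing required a mean log2 signal of 5 or more across the 6 arrays, which 45 of the 69 met. Of the other 24, 19 were below 5 on every array, and Cyp2g1, Cyp2w1, Cyp4a12a, Cyp4a12b and Cyp4f39 reached 5 on at least 1 array. Cyp3a57 lay just inside this minimum, with signals of 5.10 and 4.69 on the control arrays, 5.08 and 5.18 on ALA, and 5.28 and 5.23 on SFA. Cyp4a12a lay just outside it, through a high signal on 1 array that is given further on.

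All mice were C57Bl6/J. Dams ate 1 of 3 isocaloric diets with 6 g% oil, which came from soybean (control), flaxseed (ALA, with 31.6% alpha-linolenic acid) or coconut (SFA, with 48.51% saturated fatty acids). Sires ate chow outside mating. Livers were collected up to 1 day after birth according to the labels, and total RNA of 3 pooled livers went onto each array, with 2 arrays per diet. The labels give neither litter nor sex, and do not say whether duplicate pools came from different animals, so p-values measure only the spread between these arrays, which may be technical. The design asks how the maternal diet relates to liver gene expression in the offspring.

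Cytochrome P450 enzymes are haem proteins that insert an oxygen atom into their substrates. Those of families 1 to 4 sit mostly in the endoplasmic reticulum, receive electrons from P450 reductase and cytochrome b5, and are most abundant in hepatocytes. Families 1 to 3 are best known for oxidising drugs, environmental chemicals, steroids and polyunsaturated fatty acids, and family 4 for hydroxylating fatty acids at their far end. Their genes are known targets of the receptors AhR (family 1), CAR and PXR (subfamilies 2b, 2c and 3a) and PPARα (subfamily 4a). In mouse liver many of them are also known to differ with age and, in adults, with sex.

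Before the P450 values, several signals that separate the arrays need stating. Across the tested genes the duplicate arrays of a diet correlated at 0.977 to 0.986 (Pearson's r), and arrays from 2 diets at 0.927 to 0.964. The mean log2 signal of 11 measured hepatocyte markers lay between 12.04 and 12.20, so these markers were bright on every array. The mean of 10 macrophage markers lay at 7.30 to 7.50 on control, 8.45 to 8.83 on ALA and 8.39 to 8.44 on SFA. These means were 7.09 to 7.70, 8.53 to 8.66 and 8.26 to 8.30 for 8 endothelial markers, and 6.48 to 6.80, 7.76 to 7.92 and 7.81 to 7.89 for 9 stellate and fibroblast markers. The mean of 7 erythroid markers was 4.98 to 5.26, 6.06 to 6.19 and 6.13 to 6.31, and that of 8 proliferation genes 4.75 to 4.91, 6.15 to 7.32 and 7.54 to 7.63. Each of these 5 lists was thus lower on both control arrays than on any other array. Fetal liver markers (5 measured) averaged 4.61 to 4.80 on control, 6.24 to 6.74 on ALA and 7.09 to 7.12 on SFA. Among them Afp, the fetal serum protein gene that is known to be abundant in newborn liver, was at 4.52 and 4.81 on control, 4.94 and 5.60 on ALA, and 6.26 and 6.44 on SFA, which goes against the labelled age, most of all for the control arrays. The age of the pools and the diet cannot be told apart here, and neither can fewer cells of a type and less RNA per cell. The comparison of ALA with SFA uses no control array in its difference.

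Sex-linked genes also divided the arrays. The 3 measured Y-linked genes lay between 3.45 and 4.42 on control array 1 and both SFA arrays, and between 6.21 and 7.95 on control array 2 and both ALA arrays. Xist, which is transcribed from the inactive X chromosome of females, was at 10.67 and 8.34 on control, 3.76 and 4.24 on ALA, and 9.46 and 9.51 on SFA. The ALA pools therefore carried Y-linked signal without Xist, the SFA pools Xist without Y-linked signal, control array 1 Xist alone and control array 2 both. Between ALA and SFA, sex-linked signal and diet cannot be told apart. Because the control arrays differ from each other in this way, P450 calls against control are also given, where they did not hold, without each of them.

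The largest measured differences from control among the tested P450 genes were in Cyp3a16 and Cyp2c38, each of which has a close relative, Cyp3a44 and Cyp2c39, whose signals did not pass the test. The promoters of both pairs are shown because they let the relatives be compared base by base. Promoter sequences came from RefSeq for the mouse assembly GRCm38.p6, which held an entry for 53 of the 69 members. Cyp2c39 has 2 entries, of which the first was used. The 150 bases before the annotated start are printed 5′ to 3′ on the gene's strand, with capitals marking bases that differ from, or have no partner in, the relative. Cyp3a16 (chr5:145469724-145469873, minus strand) and Cyp3a44 (chr5:145805875-145806024, minus strand) matched at 141 of 146 aligned bases, or 96.6%. Cyp2c38 (chr19:39463076-39463225, minus strand) and Cyp2c39 (chr19:39347196-39347345, plus strand) matched at 118 of 135 aligned bases, or 87.4%.
Cyp3a16: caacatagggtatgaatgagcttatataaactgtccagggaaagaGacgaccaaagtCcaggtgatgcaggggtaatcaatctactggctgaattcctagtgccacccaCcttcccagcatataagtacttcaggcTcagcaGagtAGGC
Cyp3a44: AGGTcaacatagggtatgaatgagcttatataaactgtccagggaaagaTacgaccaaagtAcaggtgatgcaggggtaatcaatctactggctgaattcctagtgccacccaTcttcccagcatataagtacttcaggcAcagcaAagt
Cyp2c38: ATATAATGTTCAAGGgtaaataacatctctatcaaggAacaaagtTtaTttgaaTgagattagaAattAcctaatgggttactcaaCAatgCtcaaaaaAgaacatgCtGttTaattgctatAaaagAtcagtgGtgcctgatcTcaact
Cyp2c39: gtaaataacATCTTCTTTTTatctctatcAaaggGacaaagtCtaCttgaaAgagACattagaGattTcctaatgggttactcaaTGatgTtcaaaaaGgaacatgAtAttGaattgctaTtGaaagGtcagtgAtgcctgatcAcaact
The Cyp3a pair differed at 5 aligned bases and the Cyp2c pair at 17. The letters TATAAA, searched on the gene's strand in these 150 bases, occurred in 4.8% of 32851 promoters and in 13 of the 53 members with one. They lay at position -126 in Cyp3a16 and -122 in Cyp3a44, at -31 in Cyp2c38, and were not found in the Cyp2c39 window. The letters AGGTCA, searched on both strands, occurred in 8.6% of promoters and in 7 of the 53 members, among them Cyp3a44 at -150 and Cyp2c39 at -25. In Cyp3a44 these letters begin at the first base of the window, which the Cyp3a16 window does not reach because the annotated starts are offset. These matches describe the letters only.

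Most P450 genes did not pass the test in any comparison. Against control, 8 of the 45 tested members passed on ALA, or 17.8%, beside 7.93% of all tested genes, and 13 passed on SFA, or 28.9%, beside 13.8%. A member passed where its limma p, adjusted over all 10977 tested genes, was below 0.05. Both counts include Cyp3a16 and Cyp2c38, which met the signal minimum only through the groups where they are high. All 3 diet means were at least 5 for 42 of the 45 tested members, beside 10196 of the 10977 genes. On ALA, Cyp3a16, Cyp2c70, Cyp4a31 and Cyp4f16 rose (4 members, 8.89%, beside 5.11% of all tested genes that rose). Cyp2c38, Cyp2c67, Cyp2c23 and Cyp2d37-ps fell (4 members, 8.89%, beside 2.82%). On SFA, the same 4 members rose together with Cyp2c55 (5 members, 11.1%, beside 6.62%). The same 4 fell on SFA together with Cyp2j9, Cyp2d13, Cyp4b1 and Cyp2d10 (8 members, 17.8%, beside 7.15%). Both comparisons use the same 2 control arrays, so their shared calls are not separate evidence. Between ALA and SFA, 2 members passed, or 4.44%, beside 1.53% of all tested genes. Both of them, Cyp2d37-ps and Cyp2d13, were higher on ALA, as were 1.09% of all tested genes, and 0.437% were lower. This balance over all genes moved with the scaling, to 0.31% higher and 0.31% lower with quantile normalization and to 0.383% and 0.528% with centring on the 75th percentile, where 1 member was higher and 0 lower under either. On SFA against control it moved from 6.62% higher and 7.15% lower to 8.81% and 4.81% and to 9.15% and 4.69%, with 5 members higher and 7 lower and with 6 and 7. An F test over the 3 diets called 13 members, or 28.9%, beside 13.5% of all tested genes.

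The counts against control moved with the control array used. Without control array 1, 8 members rose and 7 fell on ALA, beside 3.13% and 1.20% of all genes tested in that fit, and 10 rose and 10 fell on SFA, beside 4.08% and 2.71%. Without control array 2, 3 rose and 3 fell on ALA, beside 1.49% and 0.893%, and 3 rose and 6 fell on SFA, beside 1.85% and 1.43%. The share of all genes called was lower in both of these fits than in the reported fit. The member counts, in contrast, were higher without control array 1 and lower without control array 2. The members that fell without control array 1 include Cyp4a12a, which met the signal minimum in that fit only through control array 2. Fewer members also passed against control on a diet when either array of that diet was left out. The share of all tested genes that passed dropped in the same fits, so this drop was not particular to the members. The median log2 difference over all 69 members was -0.01 for ALA and -0.03 for SFA against control, beside -0.02 and -0.01 over all genes. Arrays of the diet and of the control did not overlap for 28 of 69 members on ALA and 38 on SFA, beside 9478 and 11123 of 19938 genes.

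**Figure D1:**
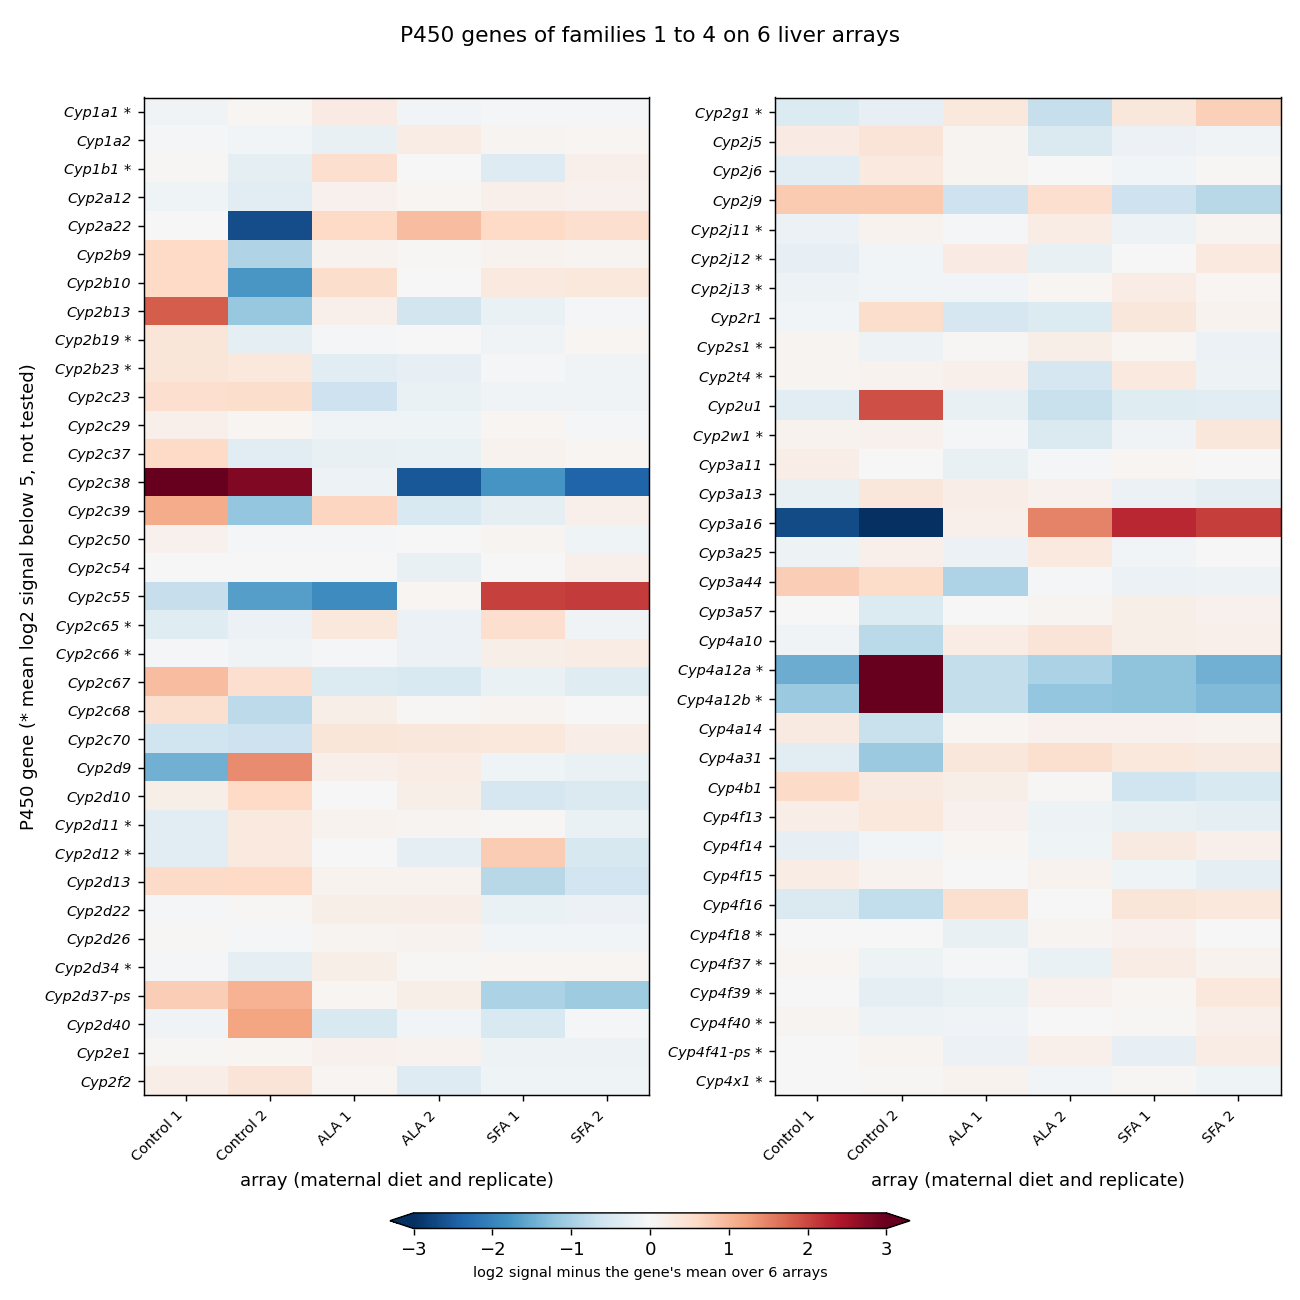
Log2 signal of each of the 69 P450 genes on each of the 6 arrays, as the difference from the gene's own mean (colour, from -3 in blue to 3 in red, with values beyond drawn in the end colours). Rows are genes, columns are arrays by diet and replicate, and asterisks mark the 24 genes that were not tested. Cyp3a16 is blue on both control arrays and red on both SFA arrays, Cyp2c38 is red on both control arrays, and Cyp4a12a and Cyp4a12b are red on control array 2 alone.

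**Figure D2:**
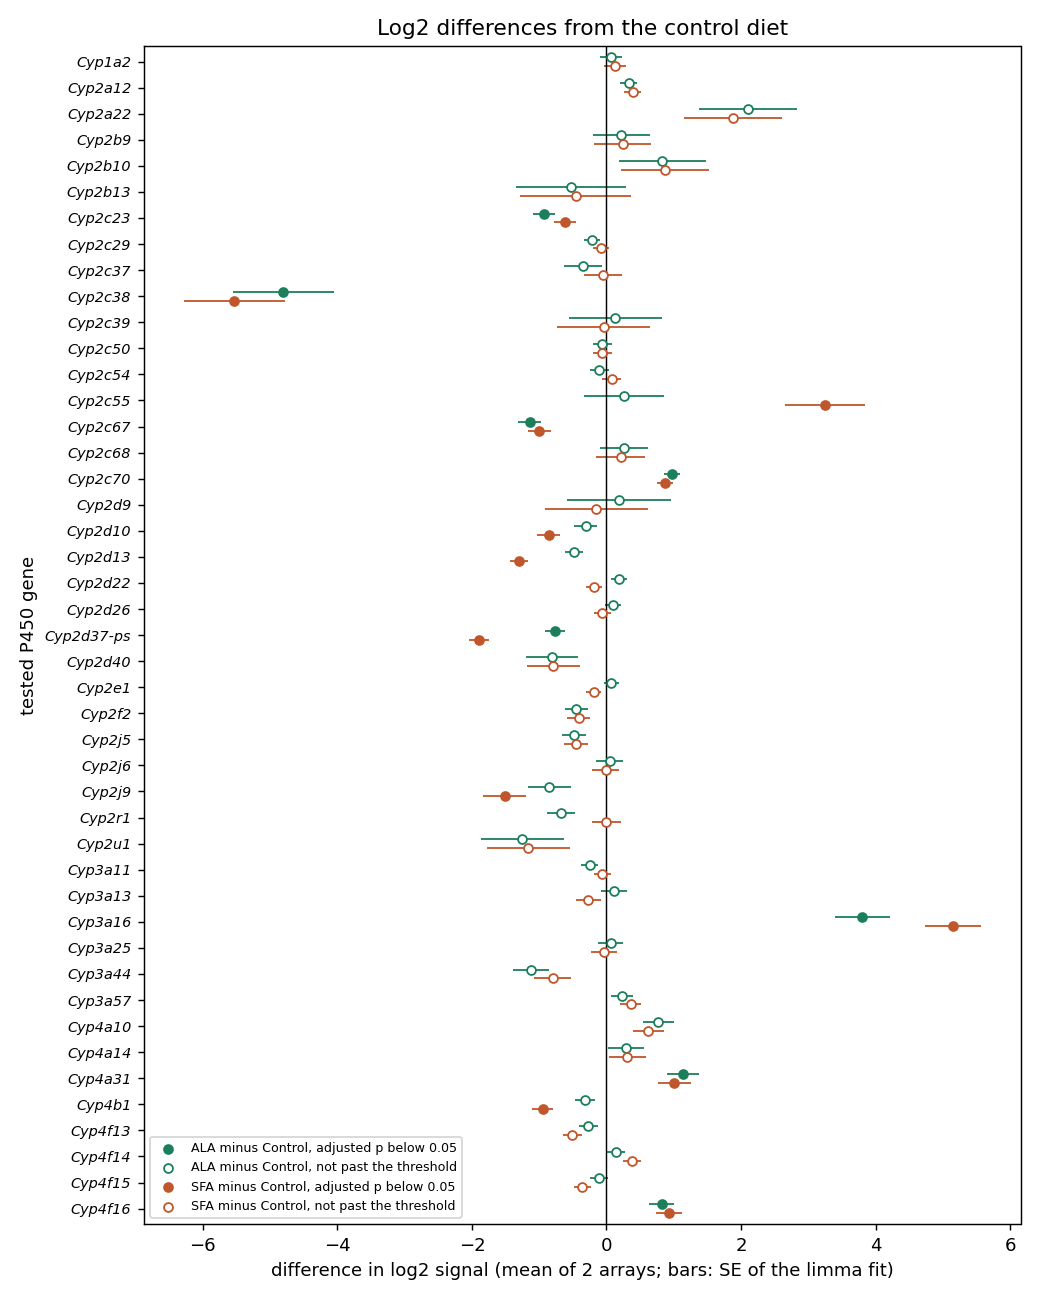
Difference in log2 signal from control of the 45 tested P450 genes, for ALA (green) and SFA (orange), each as a mean of 2 arrays against 2 with the standard error of the limma fit as bars. Filled points passed at an adjusted p below 0.05. Cyp3a16 lies farthest to the right, at 3.80 on ALA and 5.15 on SFA, and Cyp2c38 farthest to the left, at -4.80 and -5.53.

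Family 1 holds the AhR-induced genes for the oxidation of aromatic hydrocarbons and amines. Cyp1a2, which metabolises caffeine and arylamines, had log2 signals of 11.18 and 11.15 on control, 11.02 and 11.45 on ALA, and 11.31 and 11.28 on SFA. The ALA arrays lay on either side of the control arrays, and the difference was 0.07 on ALA (95% interval -0.32 to 0.45) and 0.13 on SFA (-0.25 to 0.52). Cyp1a1 stayed between 3.60 and 3.94 and Cyp1b1 between 3.52 and 4.42 on the 6 arrays, both below the minimum for testing. Among the fixed list of other AhR targets, 4 of 6 were measured and 2 were tested. Of these 2, 0 passed limma's test, adjusted or at an unadjusted p below 0.05. After adjustment 7.93% of all tested genes passed on ALA and 13.8% on SFA, so 0 of 2 says little. Nqo1 was at 0.11 on ALA and 0.46 on SFA, and Tiparp at 0.28 and 0.29. The receptor gene Ahr itself was at -0.17 and -0.14.

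Subfamily 2a, whose enzymes hydroxylate steroids and coumarin, had 2 measured members, and both had higher signals on every ALA and SFA array than on the control arrays without passing. Cyp2a12, a steroid hydroxylase gene, was at 11.13 and 10.92 on control, 11.40 and 11.32 on ALA, and 11.43 and 11.40 on SFA (adjusted p = 0.166 and 0.0902). Cyp2a22 was at 10.70 and 8.02 on control, 11.29 and 11.62 on ALA, and 11.28 and 11.20 on SFA. Its difference was 2.10 on ALA (SE 0.73, adjusted p = 0.131) and 1.88 on SFA (adjusted p = 0.128), with control array 2 well below the other 5 arrays. Without control array 1 these became 3.44 and 3.22 (adjusted p = 0.00337 and 0.00344), and without control array 2 they became 0.76 and 0.54, which did not pass.

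Subfamily 2b, the classical group of genes induced by phenobarbital through CAR, had 3 tested members. Of these, 0 passed limma's test in any comparison, adjusted or at an unadjusted p below 0.05. After adjustment 7.93% of all tested genes passed on ALA, 13.8% on SFA and 1.53% between them, so 0 of 3 says little. All 3 tested 2b genes were higher on control array 1 than on control array 2, by more than the ALA or SFA duplicates were apart. Cyp2b10, the standard marker of CAR activity, was at 11.08 and 8.73 on control, 11.01 and 10.47 on ALA, and 10.76 and 10.78 on SFA. Cyp2b9 was at 12.13 and 10.62, 11.63 and 11.56, and 11.63 and 11.61. Cyp2b13 was at 10.48 and 7.52, 8.83 and 8.11, and 8.46 and 8.60. In all 3 genes the SFA arrays lay between the control arrays, and so did the ALA arrays. Which control array was kept therefore set the result. Against control array 2 alone Cyp2b10 was higher by 2.01 on ALA and 2.05 on SFA (adjusted p = 0.0152 and 0.0139), and against control array 1 alone Cyp2b13 was lower, at -2.01 and -1.94 (adjusted p = 0.0407 and 0.0361). Cyp2b19 and Cyp2b23 were below the minimum. Cyp2b23 was at 4.63 and 4.59 on control, 3.96 and 4.01 on ALA, and 4.24 and 4.17 on SFA, and with no minimum its difference on ALA was -0.63 (adjusted p = 0.04996).

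Subfamily 2c, whose enzymes oxidise drugs, retinoids and arachidonic acid, held 13 measured and 11 tested members. It had the most tested members of any subfamily and also the most calls. On ALA 1 rose and 3 fell, beside 5.11% and 2.82% of all tested genes. On SFA 2 rose and 3 fell, beside 6.62% and 7.15%. Cyp2c38, a gene of the arachidonic acid epoxygenase group, was at 10.36 and 9.05 on control, 6.10 and 3.71 on ALA, and 4.50 and 3.86 on SFA. No ALA or SFA array came near the lower control array, and 3 of these 4 arrays were below 5, so the gene passed the signal minimum through the control group. It fell by 4.80 on ALA (SE 0.75, adjusted p = 0.0147) and by 5.53 on SFA (adjusted p = 0.00758), sizes that rest on signals below the testing minimum on 3 arrays and are not exact. Without control array 1 the ALA difference was -4.14 and no longer passed (adjusted p = 0.0647). Under limma's trend and robust moderation both Cyp2c38 calls were lost, with adjusted p = 0.0913 and 0.0542. Its relative in the promoter pair above, Cyp2c39, a retinoic acid hydroxylase gene, was at 6.65 and 4.39 on control, 6.20 and 5.09 on ALA, and 5.27 and 5.69 on SFA. The Cyp2c39 arrays of the 3 diets overlapped, and its differences were 0.13 and -0.04.

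Cyp2c67 also fell on both diets. It was at 10.08 and 9.66 on control, 8.75 and 8.70 on ALA, and 8.96 and 8.79 on SFA. It fell by 1.14 on ALA (SE 0.17, adjusted p = 0.0114) and by 1.00 on SFA (adjusted p = 0.0139). Another probe is shared by Cyp2c67, Cyp2c68, Cyp2c69 and Cyp2c40. That probe was at 11.17 and 10.35 on control, 10.72 and 10.58 on ALA, and 10.78 and 10.73 on SFA. There the diets overlapped, and the array cannot say which copy gives that signal. The epoxygenase gene Cyp2c23 was at 11.64 and 11.67 on control, 10.52 and 10.93 on ALA, and 11.04 and 11.03 on SFA. It fell by 0.93 on ALA (SE 0.16, adjusted p = 0.0200) and by 0.62 on SFA (adjusted p = 0.0463), and both calls were lost with either control array left out (adjusted p between 0.0694 and 0.165). Cyp2c70, which makes the muricholic acids of mouse bile, rose on both diets. Its arrays stood close together within each diet, at 10.68 and 10.65 on control, 11.64 and 11.61 on ALA, and 11.59 and 11.47 on SFA. The difference was 0.97 on ALA (SE 0.12, adjusted p = 0.00728) and 0.87 on SFA (adjusted p = 0.00765), and it passed with either control array left out.

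Cyp2c55, an inducible arachidonic acid epoxygenase gene, had its highest signals on SFA. It was at 6.28 and 5.31 on control, 5.08 and 7.03 on ALA, and 9.02 and 9.07 on SFA. It rose by 3.25 on SFA (SE 0.59, adjusted p = 0.0177), and the ALA arrays lay on either side of control (0.26, adjusted p = 0.826). Without control array 2 the SFA difference was 2.77 and did not pass (adjusted p = 0.0999), nor did the gene pass under trend and robust moderation. The ALA minus SFA difference of -2.99 also did not pass (adjusted p = 0.0602), so the 2 diets were not shown to differ in this gene. Cyp2c29, an inducible gene of adult liver, was at 11.86 and 11.77 on control, 11.62 and 11.59 on ALA, and 11.78 and 11.69 on SFA, and did not pass. Of the other tested members, Cyp2c37, Cyp2c50, Cyp2c54 and Cyp2c68 had differences from control between -0.35 and 0.26. The control arrays were 1.26 apart for Cyp2c68 and 0.94 for Cyp2c37. For Cyp2c68 the ALA and SFA differences were 0.89 and 0.84 without control array 1, and -0.37 and -0.42 without control array 2. For Cyp2c37 they were 0.12 and 0.42, and -0.82 and -0.51. Cyp2c65 and Cyp2c66 stayed below 5.

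**Figure D3:**
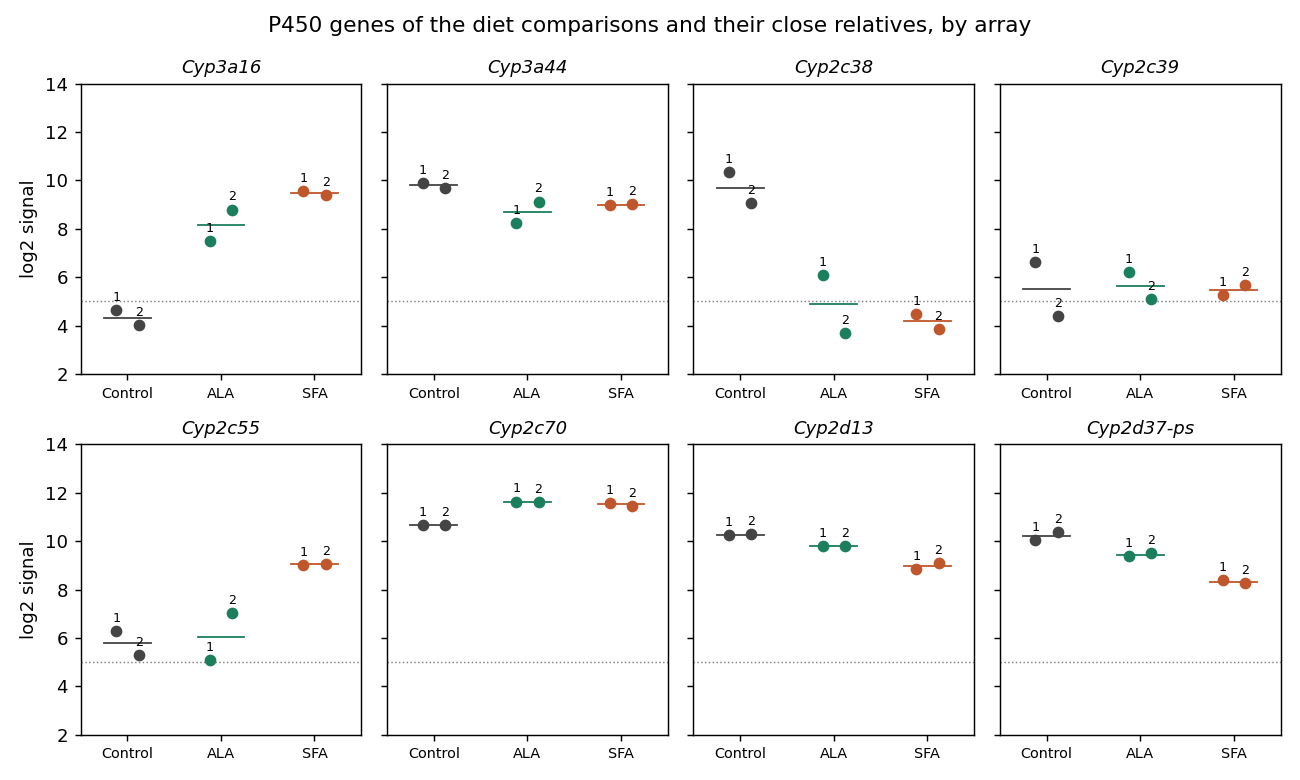
Log2 signal (vertical axis) by maternal diet of 8 P450 genes: Cyp3a16 and Cyp2c38 with their relatives Cyp3a44 and Cyp2c39, then Cyp2c55, Cyp2c70, Cyp2d13 and Cyp2d37-ps. Points are single arrays numbered by replicate, bars are means of 2 arrays, and the dotted line marks the testing minimum of 5. Cyp3a16 is below that line on both control arrays while Cyp3a44 is above 8 on all 6, and Cyp2d37-ps steps down from control to ALA to SFA.

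Subfamily 2d, whose enzymes metabolise many amine drugs and whose genes lie side by side in a tandem cluster, held both members that passed between ALA and SFA. Of 7 tested members 1 fell on ALA and 3 fell on SFA, beside 2.82% and 7.15% of all tested genes. Of the 7, 0 rose on either diet, also at limma's unadjusted p below 0.05. Of the 10977 tested genes, 1468 rose on ALA and 1548 on SFA at that unadjusted threshold. The 2 members that passed between ALA and SFA, Cyp2d37-ps and Cyp2d13, are annotated in RefSeq as transcribed pseudogenes. Cyp2d37-ps was at 10.06 and 10.37 on control, 9.39 and 9.50 on ALA, and 8.39 and 8.26 on SFA. The 3 diets did not overlap, with control highest and SFA lowest. It fell by 0.77 on ALA (SE 0.15, adjusted p = 0.0277) and by 1.89 on SFA (adjusted p = 0.00181), and was 1.12 higher on ALA than on SFA (adjusted p = 0.0383). Without control array 2 the fall on ALA was 0.62 and did not pass (adjusted p = 0.127).

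Cyp2d13 followed the same order, at 10.25 and 10.28 on control, 9.79 and 9.79 on ALA, and 8.84 and 9.09 on SFA. It fell on SFA, at -1.30 (SE 0.13, adjusted p = 0.00372), was at -0.48 on ALA (adjusted p = 0.0750), and was 0.82 higher on ALA than on SFA (adjusted p = 0.0431). Neither ALA minus SFA call held in most alternatives: that of Cyp2d37-ps was lost in 10 of 16 and that of Cyp2d13 in 13 of 16. Cyp2d10 was at 9.39 and 9.83 on control, 9.22 and 9.39 on ALA, and 8.71 and 8.79 on SFA, and fell by 0.86 on SFA (adjusted p = 0.0226), which became -0.64 without control array 2 and did not pass (adjusted p = 0.0954). Cyp2d22 and Cyp2d26 kept within 0.19 of control on both diets. Labelled RNA of near-identical Cyp2d copies may bind the same probes, so single values in this cluster are uncertain. Cyp2d40, at 7.29 and 8.58 on control, had an ALA difference of -0.81 and an SFA difference of -0.79 that did not pass, and Cyp2d11, Cyp2d12 and Cyp2d34 were below the minimum.

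The single or few members of subfamilies 2e, 2f, 2j, 2r and 2u mostly did not pass. Cyp2e1, the ethanol-inducible P450 gene, was at 12.30 and 12.32 on control, 12.40 and 12.37 on ALA, and 12.12 and 12.12 on SFA. Its difference was 0.07 on ALA (95% interval -0.20 to 0.34) and -0.19 on SFA (-0.46 to 0.08). Cyp2f2, which activates naphthalene, was at 11.99 and 12.18 on control, 11.86 and 11.41 on ALA, and 11.68 and 11.67 on SFA (adjusted p = 0.165 and 0.158). In both genes the differences were below 0.5 on the log2 scale. Cyp2j enzymes make epoxides from arachidonic acid. Cyp2j9 was at 7.77 and 7.76 on control, 6.36 and 7.47 on ALA, and 6.35 and 6.15 on SFA, and fell on SFA by 1.51 (SE 0.32, adjusted p = 0.0280), a call that was lost with either control array left out. Cyp2j6 was at 0.05 on ALA and -0.01 on SFA, and Cyp2j11, Cyp2j12 and Cyp2j13 were below the minimum. Cyp2j5, abundant in liver and kidney, was at 10.95 and 11.08, 10.79 and 10.28, and 10.54 and 10.59 (adjusted p = 0.157 and 0.139). Cyp2r1, the vitamin D 25-hydroxylase gene, was at 6.60 and 7.20 on control, 6.18 and 6.26 on ALA, and 7.02 and 6.79 on SFA. Its ALA difference of -0.68 did not pass (adjusted p = 0.0937) and its SFA difference was 0.00.

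Subfamily 3a, the PXR-controlled group that oxidises steroids and many drugs, had 6 members, and all 6 were tested. Only Cyp3a16 passed, and it rose on both diets. Cyp3a16 is a form known from fetal and neonatal mouse liver, and is also among the genes known to be higher in adult females. It was at 4.64 and 4.03 on control, 7.48 and 8.80 on ALA, and 9.57 and 9.39 on SFA. Both control arrays were below 5 and every other array was above 7, so the gene passed the signal minimum through the ALA and SFA groups. The difference was 3.80 on ALA (SE 0.41, adjusted p = 0.00520) and 5.15 on SFA (adjusted p = 0.00182), and both passed with either control array left out. These sizes are set against control signals below the testing minimum and are not exact. The ALA minus SFA difference was -1.34 and did not pass (adjusted p = 0.126). The fetal liver and proliferation markers given above were also lowest on control and highest on SFA, and their part in this difference was not tested. The part of sex-linked signal was not tested either.

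Cyp3a44, whose promoter differs from that of Cyp3a16 at 5 aligned bases, had signals in the other direction. It was at 9.90 and 9.70 on control, 8.23 and 9.13 on ALA, and 8.99 and 9.01 on SFA. Neither diet overlapped control, and the differences of -1.12 and -0.80 did not pass (SE 0.27, adjusted p = 0.0524 and 0.0949). Cyp3a11, the main drug-metabolising form of mouse liver, was at 11.83 and 11.66 on control, 11.41 and 11.57 on ALA, and 11.71 and 11.66 on SFA. Its difference was -0.25 on ALA (95% interval -0.56 to 0.06) and -0.06 on SFA (-0.37 to 0.25). Cyp3a13, Cyp3a25 and Cyp3a57 had differences from control between -0.27 and 0.36 and did not pass. Cyp3a41a has no probe of its own here. A probe shared by Cyp3a41a, Cyp3a41b and Cyp3a44 was at 10.05 and 9.46 on control, 9.35 and 9.80 on ALA, and 9.90 and 9.95 on SFA, so the diets overlapped. The array cannot say which copy gives that signal.

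Subfamily 4a holds the fatty acid omega-hydroxylases, whose genes are textbook PPARα targets. Of 5 measured members 3 were tested and 1, Cyp4a31, rose on both diets. It was at 10.23 and 9.44 on control, 10.90 and 11.04 on ALA, and 10.86 and 10.83 on SFA, a difference of 1.14 on ALA (SE 0.24, adjusted p = 0.0366) and 1.01 on SFA (adjusted p = 0.0385). Without control array 2 these were 0.74 and 0.62 and did not pass (adjusted p = 0.0798 and 0.0963). Cyp4a10 was at 11.19 and 10.49 on control, 11.52 and 11.70 on ALA, and 11.48 and 11.45 on SFA, and did not pass (adjusted p = 0.0836 and 0.110). Cyp4a14 was at 12.06 and 11.13, 11.85 and 11.92, and 11.92 and 11.91, with the ALA and SFA arrays between the control arrays. Other PPARα targets did not move in 1 direction. Of 13 tested, Pdk4 rose on SFA (1.95), and Vnn1 and Acaa1b fell on both diets (-1.45 and -1.61 on ALA, -1.25 and -1.50 on SFA). Of all tested genes, 7.93% were called on ALA and 13.8% on SFA. The receptor gene Ppara was at 0.00 and -0.29.

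Subfamily 4b had 1 member and subfamily 4f 9, of which 4 were tested. Cyp4b1, which is known for bioactivating protoxins, was at 7.19 and 6.89 on control, 6.79 and 6.65 on ALA, and 6.02 and 6.17 on SFA. It fell by 0.95 on SFA (SE 0.15, adjusted p = 0.0116) and was at -0.32 on ALA (adjusted p = 0.236). Cyp4f enzymes hydroxylate leukotrienes and long fatty acids. Cyp4f16 was at 5.73 and 5.43 on control, 6.64 and 6.14 on ALA, and 6.52 and 6.48 on SFA, and rose by 0.82 on ALA (SE 0.19, adjusted p = 0.0494) and by 0.93 on SFA (adjusted p = 0.0269). Both Cyp4f16 calls were lost with either control array left out. Cyp4f13, Cyp4f14 and Cyp4f15 had differences from control between -0.51 and 0.38 and did not pass. Cyp4f15 was at 10.32 and 10.19 on control, 10.07 and 10.21 on ALA, and 9.96 and 9.81 on SFA. Cyp4f18, Cyp4f37, Cyp4f39, Cyp4f40 and Cyp4f41-ps were below the minimum, as were Cyp2g1, Cyp2s1, Cyp2t4, Cyp2w1 and Cyp4x1, each the only measured member of its subfamily.

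The P450 genes also separated the 2 control arrays from each other. The control duplicates were at least 1 log2 unit apart for 12 of 69 members, or 17.4%, beside 0.848% of all 19938 genes. The same held for 6 members on ALA, or 8.70% beside 0.767%, and for 1 on SFA, or 1.45% beside 0.702%. The largest control gaps were in Cyp4a12a, a male-type fatty acid hydroxylase gene, and its copy Cyp4a12b. Cyp4a12a was at 3.49 and 10.75 on control, 4.26 and 4.02 on ALA, and 3.77 and 3.53 on SFA. Cyp4a12b was at 3.36 and 10.01, 3.76 and 3.31, and 3.28 and 3.16. Control array 2 alone was high for both, and Y-linked signal was present on that array and on both ALA arrays. The source of the Cyp4a12a and Cyp4a12b signal was not tested.

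Further male-type genes had the same order within the control pair. Cyp2d9, a testosterone 16-alpha-hydroxylase gene, was at 7.69 and 10.56 on control, 9.28 and 9.35 on ALA, and 9.01 and 8.93 on SFA. Its difference on ALA changed sign with the control array, from -1.24 without control array 1 (adjusted p = 0.0154) to 1.63 without control array 2 (adjusted p = 0.0151), and on SFA from -1.59 (adjusted p = 0.00791) to 1.28 (adjusted p = 0.0247). Cyp2u1, a long-chain fatty acid hydroxylase gene, was at 5.63 and 7.88 on control, 5.73 and 5.29 on ALA, and 5.58 and 5.61 on SFA. Of a list of 4 genes known to be higher in adult males, all 4 were higher on control array 2 than on control array 1. Of 12 genes known to be higher in adult females, 7 were measured and all 7 were higher on control array 1. Among these 7, Cyp3a16 was below 5 on both control arrays (4.64 and 4.03), and Cyp3a44 differed by 0.20 (9.90 and 9.70). Over all 19938 genes, 10266 were higher on control array 1 and 9671 on control array 2, and over the 69 members 36 and 33. Lists not chosen by sex were uneven as well. Of 14 measured PPARα targets, 12 were higher on control array 1 and 2 on control array 2. Of 17 P450 genes of other families, 5 were higher on control array 1 and 12 on control array 2.

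**Figure D4:**
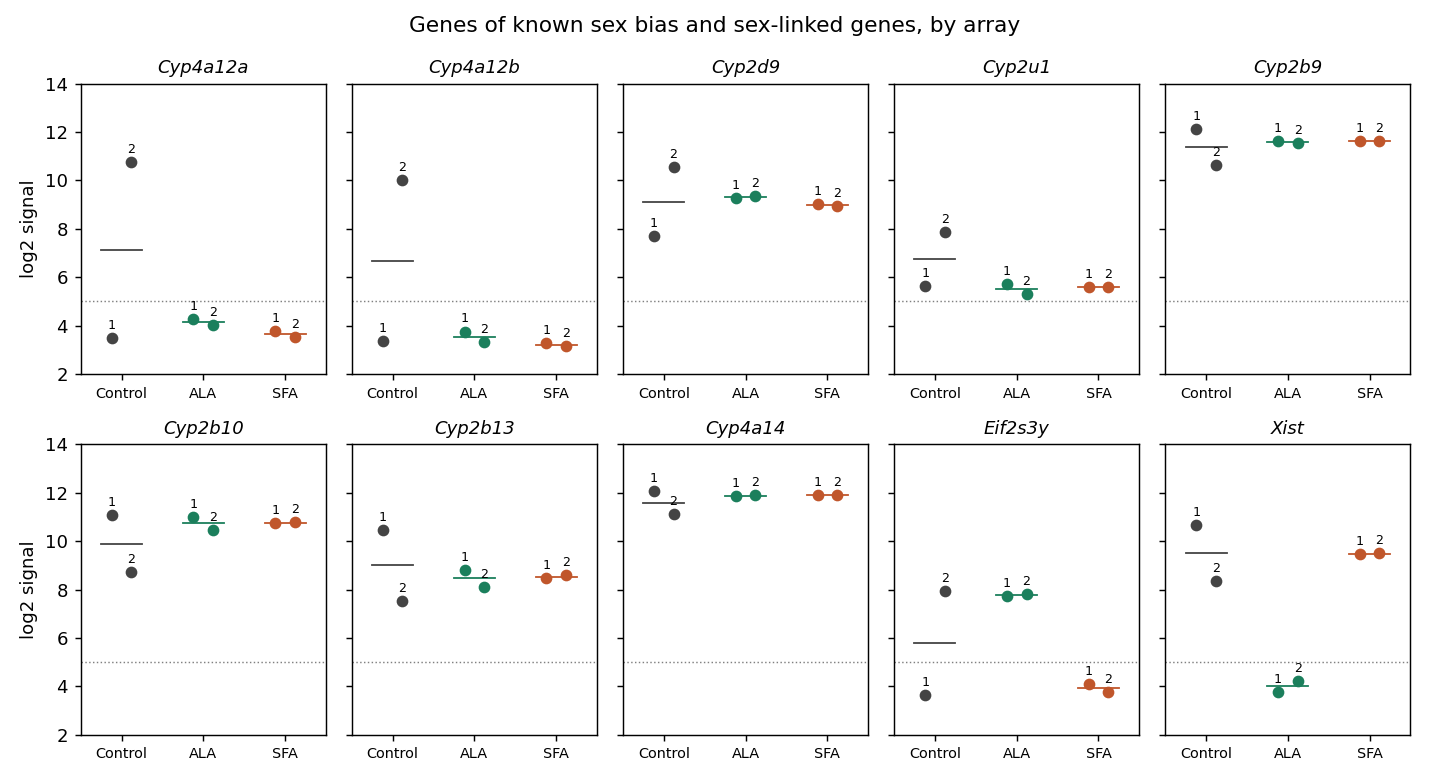
Log2 signal (vertical axis) by maternal diet of 4 genes known to be higher in adult male liver (Cyp4a12a, Cyp4a12b, Cyp2d9, Cyp2u1), 4 known to be higher in adult female liver (Cyp2b9, Cyp2b10, Cyp2b13, Cyp4a14), the Y-linked gene Eif2s3y and Xist. Points are single arrays numbered by replicate, bars are means of 2 arrays, and the dotted line is the testing minimum of 5. The male-type genes are highest on control array 2, whereas Eif2s3y is high on control array 2 and on both ALA arrays.

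**Figure D5:**
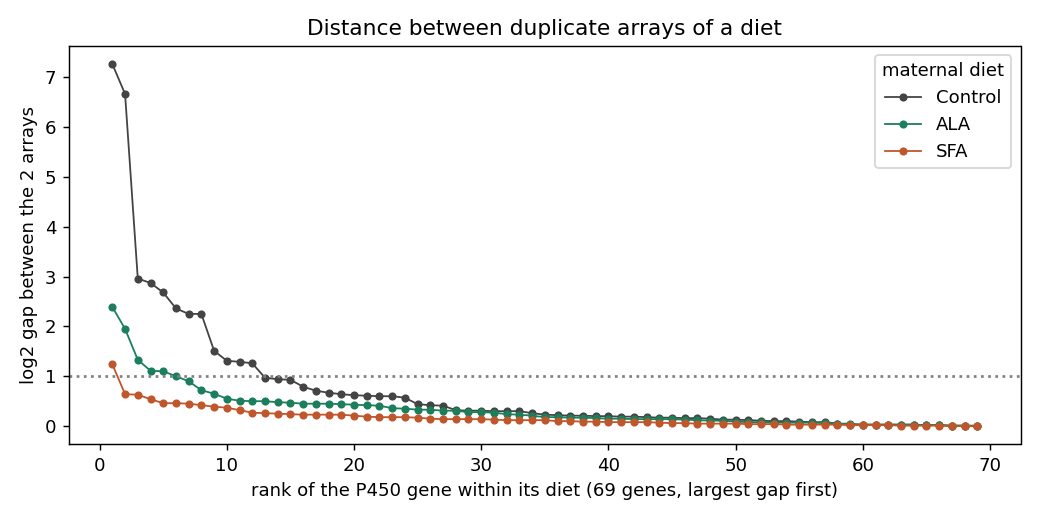
Absolute log2 gap between the 2 arrays of each diet (vertical axis) for the 69 P450 genes, ranked from the largest gap within each diet (horizontal axis). The dotted line marks a gap of 1, which 12 genes reach on control, 6 on ALA and 1 on SFA, and the largest control gaps are 7.26 and 6.66.

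P450 genes known to rise as the mouse liver matures were high on all arrays. Of a list of 8 such genes 7 were measured, their signals lay between 8.73 and 12.18 on every array, and 0 passed limma's test in either comparison with control, with 1 lower on ALA and 0 on SFA at an unadjusted p below 0.05. Of 6 genes known for perinatal expression 4 were measured, and 1, Cyp3a16, passed in each comparison with control. Of all tested genes, 7.93% were called on ALA and 13.8% on SFA. The other measured ones were high on all arrays too, so high signal was not particular to the first list. Cyp3a11 lay between 11.41 and 11.83, Cyp2e1 between 12.12 and 12.40, and Cyp4a10 between 10.49 and 11.70.

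Genes that serve or control P450 enzymes were read off the same fit. In it 7.93% of all tested genes were called on ALA, 13.8% on SFA and 1.53% between ALA and SFA. Of the electron donors, 5 of 7 were measured, and Cyb5b, a mitochondrial form of cytochrome b5, fell on ALA by 0.99 (adjusted p = 0.00773) and was lower on ALA than on SFA (-0.84, adjusted p = 0.0393). Cyb5a, the microsomal form, was at -0.04 and -0.07, the reductase gene Cyb5r1 did not pass at -0.71 on SFA, and Por was not analysed here. In haem synthesis and breakdown, 12 of 13 were measured, of which 1 rose and 3 fell on ALA and 2 rose and 4 fell on SFA. Alas1, the rate-limiting enzyme gene of haem synthesis in liver, was at 10.78 and 10.59 on control, 11.25 and 11.17 on ALA, and 10.21 and 10.05 on SFA. It fell on SFA by 0.55 (adjusted p = 0.0396), was at 0.53 on ALA (adjusted p = 0.0575), and was 1.08 higher on ALA than on SFA (adjusted p = 0.0383). Hmox1, which breaks haem down, rose by 1.18 and 1.30, and Fech, which inserts iron into the ring, fell by 0.58 and 0.72. Alad (-0.61) and Blvrb (-0.66) also fell on ALA, and Ppox (-0.83) and Blvrb (-0.65) on SFA, where Hmox2 rose by 0.62.

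Of 29 regulators of P450 genes 28 were measured, of which 3 rose and 1 fell on ALA, and 2 rose and 4 fell on SFA. Over all tested genes 5.11% rose and 2.82% fell on ALA, and 6.62% rose and 7.15% fell on SFA. Nr1i2, which encodes PXR, rose by 0.81 on ALA (adjusted p = 0.0220) and by 0.62 on SFA (adjusted p = 0.0345). Nr1i3, which encodes CAR, was at 10.66 and 10.48 on control, 10.38 and 10.34 on ALA, and 9.20 and 9.22 on SFA. It fell on SFA by 1.36 (adjusted p = 0.00302) and was 1.15 higher on ALA than on SFA (adjusted p = 0.0348). Its target gene Cyp2b10 was at -0.03 for ALA minus SFA (adjusted p = 0.983). Against control Cyp2b10 was at 0.83 on ALA and 0.87 on SFA (adjusted p = 0.487 and 0.403), with the control arrays 2.36 apart. These differences were 2.01 and 2.05 without control array 1, and -0.35 and -0.31 without control array 2. The clock-related factor genes Dbp and Tef were also lowest on SFA, with Dbp at 8.57 and 9.01 on control, 8.21 and 8.46 on ALA, and 6.78 and 6.44 on SFA. Dbp fell on SFA by 2.18 (adjusted p = 0.00302) and Tef by 1.01 (adjusted p = 0.00659), and both were higher on ALA than on SFA, by 1.72 and 1.21. The coactivator gene Ppargc1a rose on both diets, by 1.63 and 1.04, the pioneer factor gene Foxa1 fell by 0.94 and 0.89, and Cebpb rose on ALA by 0.81. Onecut1, a liver homeobox factor gene, was at 7.74 and 8.08 on control, 9.39 and 7.97 on ALA, and 6.69 and 6.41 on SFA. It passed the F test over the 3 diets (adjusted p = 0.0378) but no single comparison, with the ALA minus SFA difference at 2.13 (adjusted p = 0.0588). Hnf4a, a main factor of hepatocyte genes, was at -0.02 and -0.10 and did not pass.

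Among 17 P450 genes of other families, 9 were tested, and Cyp39a1, an oxysterol hydroxylase gene, rose by 1.79 on ALA and 1.57 on SFA (adjusted p = 0.00282 and 0.00302). Cyp17a1, a steroid hydroxylase gene, rose on SFA by 2.17 (adjusted p = 0.0375). Cyp7b1, an oxysterol hydroxylase gene that is also known to be higher in males, was at 8.35 and 10.98 on control, 5.50 and 5.46 on ALA, and 5.39 and 5.68 on SFA. It fell by 4.18 and 4.13 (adjusted p = 0.0197 and 0.0157), with both control arrays above every other array. Of all tested genes, 7.93% were called on ALA and 13.8% on SFA.

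The calls against control in these other lists and families were refitted without each control array, a step chosen after seeing the data. Of 31 such calls 12 passed with either control array left out: those of Cyb5b on ALA, of Nr1i3, Dbp and Tef on SFA, and of Hmox1, Acaa1b, Cyp39a1 and Cyp7b1 on both diets. Those of Foxa1 on both diets, Ppargc1a on ALA, and Cyp17a1 and Pdk4 on SFA were lost without control array 2 alone, and that of Vnn1 on ALA without control array 1 alone. The other 13, among them Nr1i2 on both diets and Alas1 on SFA, were lost with either left out. The ALA minus SFA calls of Cyb5b, Alas1, Nr1i3, Dbp and Tef did not pass in either of these fits (adjusted p between 0.0517 and 0.0738), in which fewer arrays estimate the spread.

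A set of 7 probes was annotated to a P450 gene of these families together with at least 1 other gene and was not tested. In 1 of them the other gene, Klkb1, is no P450 gene. That of Cyp2a4 and Cyp2a5 was at 11.90 and 11.37 on control, 11.34 and 11.33 on ALA, and 10.82 and 10.88 on SFA. That of Cyp4a10, Cyp4a31 and Cyp4a32 was at 11.45 and 10.61, 11.59 and 11.64, and 11.48 and 11.40. In the first the SFA arrays lay below all others, and in the second control array 2 did, as it also did for Cyp4a10 and Cyp4a31 alone.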

How the data were processed

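Pup liver RNA from 3 maternal diet groups, named by the sample titles, had been hybridised to Affymetrix arrays, 6 in all. The deposited values are log2 signals made with RMA and Partek 6.6, per the submitters' processing notes; other settings are not given in the sources used here, and the log base was read from the range of values. The number of arrays limits the precision.

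Of 35556 probes, 21789 had 1 gene symbol in the platform annotation, 1621 had several and 12146 had none; symbols were checked against RefSeq. Each of 19938 genes was represented by its brightest probe. The 10977 genes with a mean log2 signal of at least 5 were tested in R 4.3.3 with limma 3.58.1, with a mean per diet over all 6 arrays (3 residual degrees of freedom). P-values are two-sided and adjusted by Benjamini-Hochberg over all tested genes, and calls were made below 0.05. SE values are from this fit with n = 2 arrays per diet. The procedure was tested on simulated data.

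The members, gene lists, tests and alternatives were chosen with earlier results of these data known. Named members are the called ones, the brightest and most different of each subfamily and a short list of well-known genes. Alternatives changed the signal minimum, probe choice, normalization, moderation, arrays fitted and replicate block. Values of the 2 fits that leave out a control array assume that the lone control varies like the other groups.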

Additional observations from a re-analysis of the deposited data

How the results depend on the processing

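Across the 16 alternatives, the calls of Cyp2c70 and Cyp3a16 on ALA and of Cyp2d13, Cyp2d37-ps and Cyp3a16 on SFA held in all, and every other call was lost in at least 1. Over single members, 2022 values kept their side of the threshold, 89 lost the threshold, 38 gained it and 2 reversed. A value counted as reversed where its sign changed and it passed in either fit. Values that changed sign without passing, such as Cyp2b10 on ALA (0.83, and -0.35 without control array 2), are among the 2022. The reversed values were Cyp2d9 on ALA, at -1.24 without control array 1 (1.63 without control array 2), and on SFA, at 1.28 without control array 2 (-1.59 without control array 1).

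The 4 members that rose on ALA became 2 with only the 4 arrays compared. The 2 members higher on ALA than on SFA became 0 with no signal minimum, with 1 array of at least 5, with the replicate block and with only the 4 arrays compared, and 1 with quantile normalization, centring on the 75th percentile or cyclic loess. With a minimum of 6, 1 member, Cyp2c55, was lower on ALA than on SFA, against 0 in the reported fit. On centring at the 75th percentile 6 members rose and 7 fell on SFA. No scaling moved the median difference of all tested genes beyond 0.07.

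Leaving out 1 array at a time, the members that rose on ALA ranged from 2 to 8 and those that fell from 1 to 7; on SFA the ranges were 1 to 10 and 2 to 10; between ALA and SFA 0 were higher each time and 0 to 1 lower; and the F test called 5 to 16. Besides the losses without a control array given in the report, leaving out ALA array 1 ended the ALA calls of Cyp2c23, Cyp2c67, Cyp2d37-ps, Cyp4a31 and Cyp4f16, and leaving out ALA array 2 those of Cyp2c67, Cyp2d37-ps and Cyp4a31. Leaving out either SFA array ended the SFA calls of Cyp2c23, Cyp2c55, Cyp2c67, Cyp2d10, Cyp2j9, Cyp4a31, Cyp4b1 and Cyp4f16; that of Cyp2c70 was also lost without SFA array 1 and that of Cyp2c38 without SFA array 2. The replicate block gave 4 higher and 4 lower on ALA, 5 and 7 on SFA and 11 by the F test. Deviations of same-numbered arrays from their diet means correlated at -0.0302, -0.00402 and 0.0226, so the numbers were not taken as pairs. The 24 members below the signal minimum were not tested in the reported fit. With no minimum Cyp2b23 was called lower on ALA. Without control array 1 Cyp4a12a met the minimum only through its signal on control array 2. Its fall against that array was therefore fixed by the filter and is not a test result. With 2 arrays per diet, small differences may be missed.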
